A study of Mus musculus with 6 samples.

Results

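Wnt ligands, their frizzled and Lrp receptors and their secreted antagonists were followed in inguinal white adipose tissue, the fat pad under the skin of the groin, of diet-induced obese mice. The members were the protein-coding genes of the deposited count table named Wnt, Fzd, Sfrp or Dkk with a number, plus Lrp5, Lrp6, Wif1 and Frzb. They numbered 41 of the 57180 genes listed: 19 ligands, 10 frizzled receptors, 2 co-receptors and 10 antagonists. The ADISSP libraries came from wild-type mice on a high-fat diet given recombinant Adissp, a protein secreted by fat cells, at 68 nmol/kg daily for 33 days (n = 3). The Control libraries came from wild-type mice on the same diet (n = 3), and the labels do not say what those mice received, nor the age or sex of any mouse. The question was what the protein changed in the RNA of this depot. Total counts were 10357930 to 15658428 per library.

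Wnt proteins are secreted lipid-modified signals that bind frizzled receptors together with the co-receptors Lrp5 or Lrp6. In the canonical branch this keeps beta-catenin from being degraded, so that it can act with the TCF and LEF factors on target genes, while other branches act through cell polarity and calcium. In fat, canonical signalling is known for holding back the formation of fat cells from their progenitors, and secreted frizzled-related (Sfrp) and Dickkopf (Dkk) proteins limit Wnt signals outside the cell. Cell types are mixed in a fat pad, so fewer cells of a type and less RNA per cell cannot be told apart in these libraries.

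Most Wnt family members did not pass the test, and those that did were 1 co-receptor, higher in ADISSP, and 3 antagonists, lower. Each change below is a log2 ratio, ADISSP over Control, from edgeR's quasi-likelihood test with TMM scaling, and a gene was called when its Benjamini-Hochberg adjusted p was under 0.05. Of the 41 members, 24 had enough counts to be tested, and 4 of these (16.7%) were called, whereas 35.0% of all 17320 genes tested were called. The co-receptor gene Lrp5 rose, and the antagonist genes Dkk2, Dkk3 and Sfrp4 fell, as against 18.5% of all genes called higher and 16.5% called lower. The median change of the 24 tested members was -0.15, beside -0.01 for all genes. Counts per 1000000 (CPM) did not overlap between the groups for 8 of the 24 (33.3%), compared with 49.8% of all genes. Of the 8, 2 were higher in ADISSP, beside 26.1% of all genes, and 6 were lower, beside 23.7%. A filter on low counts decided which members were tested, so these numbers leave out 17 members described below by their counts.

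**Figure D1:**
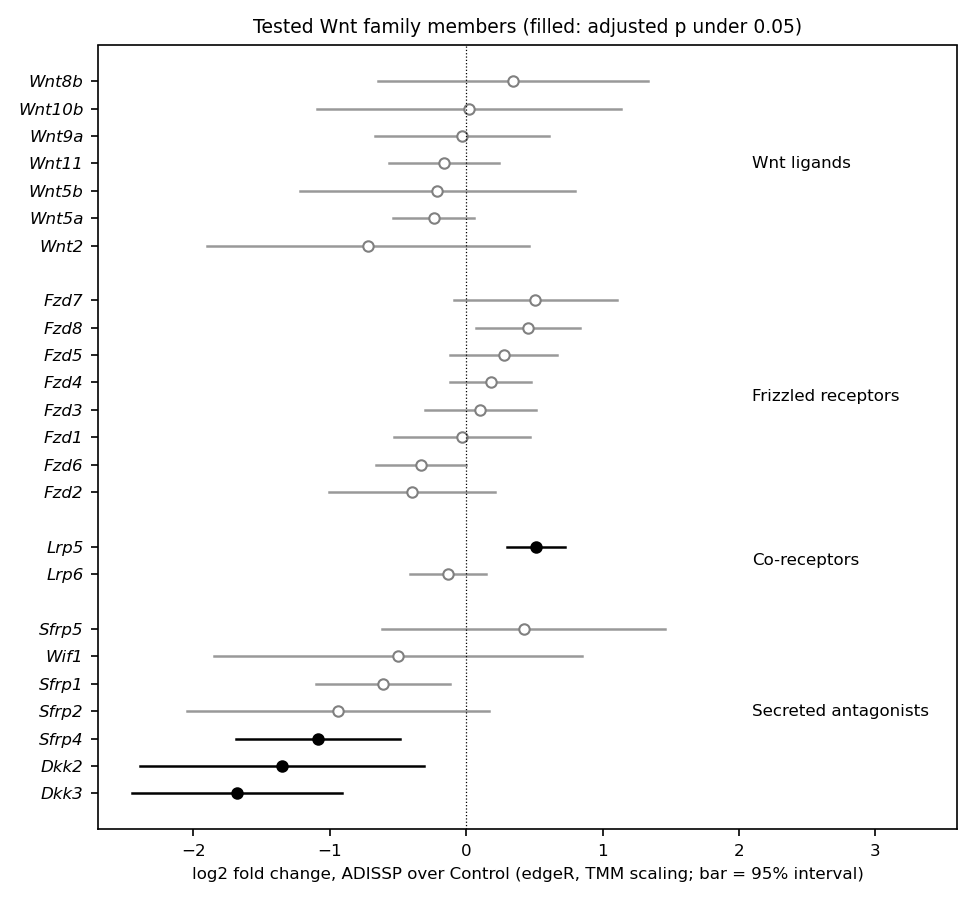
Log2 fold change of ADISSP over Control (horizontal axis) for the 24 tested members, grouped by role, with 95% intervals from the edgeR fit as bars. Filled points are the 4 called members, Lrp5 at 0.51 and Sfrp4, Dkk2 and Dkk3 at -1.09, -1.35 and -1.68, and among the others the intervals of Fzd6, Fzd8 and Sfrp1 lie to 1 side of 0.

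The scaling of the libraries bears on each direction given here. Scaling by library totals moved the median change of all genes by -0.35 and the deposited TPM, on log2(TPM + 1), moved it by -0.52, so a change is best read against the other genes. By library totals, 9 of the 24 members were called lower, beside 38.1% of all genes: Dkk2, Dkk3, Sfrp4, Wnt5a, Wnt11, Fzd2, Fzd6, Lrp6 and Sfrp1. With limma on log2(TPM + 1), 12 of 33 members were called lower, namely these 9 with Wnt6, Fzd4 and Sfrp2, beside 41.3% of all 23524 genes. Of the 24 members tested by edgeR, 0 had a positive change on that TPM scale. TPM values are used below for levels, since they are per transcript length and can be compared between genes, and CPM for differences between the groups.

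Control 3 stood apart from Control 1 and Control 2. The first principal component of all tested genes (72% of variance) put it at 15.3, between Control 1 and Control 2 at 81.0 and 85.9 and the ADISSP libraries at -66.0 to -57.5. The 12 skeletal muscle marker genes summed to 4044, 4667 and 4666 CPM in ADISSP 1, 2 and 3 and to 39.6, 52.8 and 11070 CPM in Control 1, 2 and 3. The 10 B cell markers summed to 6.57 to 12.7 CPM in ADISSP and to 614, 727 and 142 CPM in Control. Without Control 3, 46.7% of genes were called, Lrp5, Dkk3 and Sfrp4 kept their calls, Dkk2 lost its own (adjusted p = 0.0871), and Wnt6, Fzd7 and Fzd8 gained one. None of the 12 fat cell markers, which check the tissue label, was at 0 in either group, and they summed to 28716 to 32268 CPM in ADISSP and 19930 to 25760 CPM in Control.

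Promoters are shown for the strongest frizzled receptor, the strongest antagonist and the called antagonist that the promoter table holds, because these 3 genes anchor the results below. The table from RefSeq (GRCm38.p6, 300 bases around the gene's start, most of them before it) held 27 of the 41 members. Its build differs from that of the gene positions given with the results, which are those of the deposited table on GRCm39. Capitals mark matches on either strand to the strings named here. CTTTGAT is known from TCF and LEF factors, as is the variant written CTTTGAA. The letters TATAAA are a core promoter element, and TGACGTCA is the cAMP response element.
Fzd4 (GRCm38.p6, chr7:89404116-89404415, + strand): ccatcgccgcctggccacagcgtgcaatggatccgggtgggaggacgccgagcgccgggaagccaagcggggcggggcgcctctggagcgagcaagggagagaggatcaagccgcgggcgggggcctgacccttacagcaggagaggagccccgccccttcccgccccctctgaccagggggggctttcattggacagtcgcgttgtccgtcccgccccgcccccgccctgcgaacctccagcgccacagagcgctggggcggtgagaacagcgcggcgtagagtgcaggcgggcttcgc
Sfrp5 (GRCm38.p6, chr19:42202203-42202502, - strand): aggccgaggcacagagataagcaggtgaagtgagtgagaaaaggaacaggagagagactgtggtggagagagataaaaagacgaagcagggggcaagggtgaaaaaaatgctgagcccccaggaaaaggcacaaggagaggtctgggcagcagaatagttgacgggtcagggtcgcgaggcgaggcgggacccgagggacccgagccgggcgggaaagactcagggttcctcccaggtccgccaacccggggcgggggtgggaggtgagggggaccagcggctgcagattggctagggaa
Dkk2 (GRCm38.p6, chr3:132085042-132085341, + strand): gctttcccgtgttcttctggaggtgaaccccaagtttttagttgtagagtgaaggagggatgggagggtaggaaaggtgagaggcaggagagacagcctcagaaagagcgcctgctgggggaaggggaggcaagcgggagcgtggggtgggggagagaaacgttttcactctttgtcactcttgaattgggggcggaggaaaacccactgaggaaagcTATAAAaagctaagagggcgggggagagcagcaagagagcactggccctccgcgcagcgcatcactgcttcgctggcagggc
The Fzd4 window was 72.7% G and C with 32 CpG dinucleotides, the Sfrp5 window 61.3% with 15 and the Dkk2 window 57.7% with 11, while all 32851 promoter windows averaged 53.8% with a median of 7 CpG. Of these 3 windows the Dkk2 window held a match, to TATAAA, which 13.6% of all windows contained. The TCF and LEF letters were in 8.65% of all windows, the cAMP element in 1.79% and the PPAR and RXR repeat in 0.0396%. Among members, the TCF and LEF letters occurred in 3 of the 30 windows listed.

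Among the 19 ligands, none of the 7 tested was called in edgeR, with a smallest adjusted p of 0.190. None of the 7 had an unadjusted p under 0.05. Of all 17320 genes tested by edgeR, 35.0% were called and 7872 genes had an unadjusted p under 0.05. Wnt5a, a ligand best known for signalling outside the beta-catenin branch, was the most abundant ligand. It stood at 14.5, 16.05 and 19.0 TPM in ADISSP 1, 2 and 3 and at 29.5, 26.3 and 31.0 TPM in Control 1, 2 and 3. On CPM, where other genes set the scale, it measured 39.9, 46.6 and 50.3 in ADISSP and 53.9, 46.1 and 61.2 in Control, so the groups overlapped. Its change was -0.24 (SE 0.13, 95% interval -0.53 to 0.06, adjusted p = 0.190 by edgeR). The TPM ranges did not overlap, and with limma on log2(TPM + 1) Wnt5a was called lower at -0.78 (adjusted p = 0.00461), where all genes shifted by -0.52. Scaling by library totals, where all genes shifted by -0.35, also gave a call (-0.58, adjusted p = 0.00535).

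Wnt11, a second ligand of the polarity branch, came next in level, with 3.91, 4.10 and 4.35 TPM in ADISSP and 6.56, 7.16 and 6.93 TPM in Control. In CPM it had 5.70, 6.29 and 6.11 in ADISSP and 6.34, 6.64 and 7.23 in Control. All 3 ADISSP libraries were below all Control libraries on both scales, by margins that edgeR with TMM scaling did not call (-0.16, SE 0.18, adjusted p = 0.515).

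Wnt10b, which restrains fat cell formation through beta-catenin, had 0.9495, 3.97 and 4.12 CPM in ADISSP and 2.43, 3.68 and 2.73 CPM in Control. ADISSP 1 was the lowest library and the other two ADISSP libraries were the highest, so the change of 0.02 carries an interval of -1.10 to 1.14. Wnt2, a canonical ligand, showed the same library lowest, at 0.396, 2.43 and 1.99 CPM in ADISSP beside 2.43, 2.97 and 2.39 CPM in Control. Its change was -0.72 with an interval of -1.90 to 0.46. The other tested ligands, Wnt5b, Wnt8b and Wnt9a, had changes of -0.21, 0.35 and -0.03, overlapping groups and intervals that all include 0. Wnt5b overlaps Fbxl14, a gene with 2296 counts on the opposite strand, and whether reads were counted by strand was not stated in the labels.

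The remaining 12 ligands had too few counts for the test. Wnt6, known with Wnt10a to restrain fat cell formation in culture, had 1, 1 and 4 counts in ADISSP and 12, 13 and 8 in Control. Every ADISSP library was below every Control library. The ratio of summed counts, scaled by library totals with their TMM factors, was 0.257 (95% exact interval 0.0880 to 0.621, counting error only). With all libraries, Wnt6 was not called by edgeR without the low-count filter, nor by DESeq2. For Wnt10a the counts were 1, 0 and 2 in ADISSP and 12, 4 and 1 in Control, a ratio of 0.249 (0.0468 to 0.862, counting error only), and here Control 3 was as low as ADISSP. Wnt4 had 2, 6 and 6 counts in ADISSP and 0, 0 and 20 in Control. Its highest library was Control 3 and its lowest were Control 1 and 2, the order of the skeletal muscle markers given above, whose part in this was not tested. Wnt16, Wnt2b and Wnt9b had 20 to 30 counts over all 6 libraries and intervals that include 1. Wnt1, Wnt3, Wnt3a, Wnt7a, Wnt7b and Wnt8a had 0 to 5 counts over all libraries, where 3 counts in 1 library correspond to 0.165 to 0.331 CPM.

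**Figure D2:**
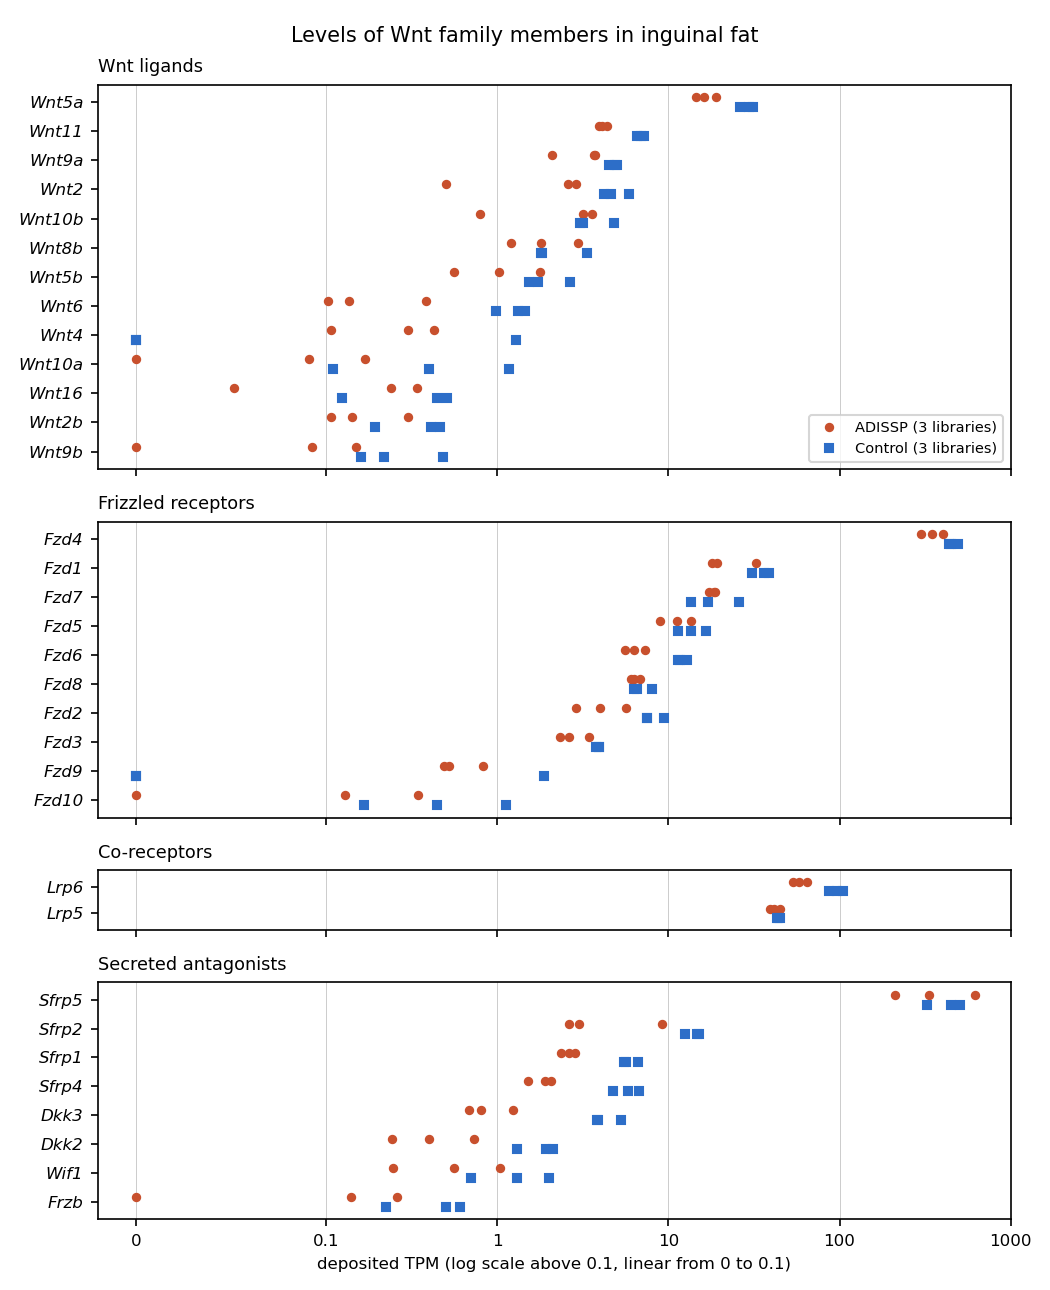
Deposited TPM (horizontal axis, logarithmic above 0.1) of the 33 members listed with a TPM, with each library as a point, circles for ADISSP and squares for Control. Fzd4 and Sfrp5 stand above all other members, and Control points lie to the right for many genes on this scale, on which the median of all genes is lower in ADISSP by 0.52 (log2).

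Frizzled receptors were dominated by 1 gene. None of the 8 tested was called by edgeR with TMM scaling, beside 35.0% of all genes. In that test 2 of the 8 had an unadjusted p under 0.05, beside 7872 of all 17320 genes. Fzd4, which binds several Wnts and also the ligand norrin, stood at 349, 301 and 400.1 TPM in ADISSP and at 449, 438 and 490.2 TPM in Control. In CPM it had 825, 751 and 912 in ADISSP and 705, 660 and 831 in Control. The order of the groups was thus opposite on these scales, and the edgeR change of 0.18 had an interval of -0.12 to 0.48 (adjusted p = 0.322). With limma on log2(TPM + 1), where all genes shifted by -0.52, Fzd4 was called lower at -0.40 (adjusted p = 0.0326). Fzd1, the next receptor in level, had 28.5, 27.9 and 46.3 CPM in ADISSP and 37.7, 29.0 and 38.4 CPM in Control, with a change of -0.03 and overlapping groups.

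Fzd7 and Fzd8 gave the largest positive changes among the receptors, and for both Control 3 was nearest to ADISSP. Fzd7, a receptor known from muscle stem cells, had 29.8, 30.9 and 26.5 CPM in ADISSP and 14.4, 17.3 and 29.7 CPM in Control. The change was 0.51 (SE 0.26, adjusted p = 0.165), and without Control 3 it was 0.87 and called (adjusted p = 0.00025). Fzd8 had 13.2, 13.5 and 13.8 CPM in ADISSP and 8.77, 8.73 and 12.1 CPM in Control, so the groups did not overlap. Its change of 0.45 (SE 0.17) had an adjusted p of 0.0665 in edgeR and was 0.63 and called without Control 3 (adjusted p = 0.00597). Skeletal muscle markers also set Control 3 apart from Control 1 and Control 2, and their part in these values was not tested.

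Fzd6, a receptor of the polarity branch, was lower in each ADISSP library, at 9.42, 11.3 and 11.9 CPM in ADISSP against 13.2, 13.8 and 13.9 CPM in Control. Its change of -0.33 (SE 0.15) was not called by edgeR with TMM scaling (adjusted p = 0.108), and was called by library totals (-0.68, adjusted p = 0.00775) and on log2(TPM + 1) (-0.82, adjusted p = 0.00642). Fzd2, Fzd3 and Fzd5 had log2 values of -0.40, 0.10 and 0.28, with overlapping CPM and no call by edgeR with TMM scaling. Fzd2 was called lower by library totals (-0.74, adjusted p = 0.0467) and on log2(TPM + 1) (-0.85, adjusted p = 0.0264). For both Fzd6 and Fzd2, these values stand beside shifts of all genes by -0.35 and -0.52 on those scales. Of the untested receptors, Fzd9 had 5, 4 and 9 counts in ADISSP and 0, 0 and 16 in Control, again with Control 3 highest, and Fzd10 had 5, 0 and 2 counts in ADISSP and 6, 15 and 2 in Control.

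The co-receptors differed in outcome: Lrp5 rose in ADISSP while Lrp6, its close relative, was not called. Lrp5 (ENSMUSG00000024913, GRCm39 chromosome 19, 3634828 to 3736564, minus strand) had 134, 149.6 and 148.5 CPM in ADISSP and 97.6, 98.5 and 107 CPM in Control. Every ADISSP library exceeded every Control library, with means of 144 ± 8.47 CPM in ADISSP and 101 ± 5.19 CPM in Control (SD, n = 3 each). The change was 0.51 (SE 0.09, adjusted p = 0.00362 by edgeR). It depends on the scaling: by library totals the change was 0.16 (adjusted p = 0.153), and on log2(TPM + 1) it was -0.07, while all genes shifted by -0.35 and -0.52 on those scales.

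Lrp6 (ENSMUSG00000030201, GRCm39 chromosome 6, 134423439 to 134543928, minus strand) had 279, 272 and 301 CPM in ADISSP and 276, 296 and 360.3 CPM in Control. The groups overlapped and the change was -0.13 (SE 0.12, adjusted p = 0.438 by edgeR). By library totals it was -0.48 and called (adjusted p = 0.00559), and on log2(TPM + 1) -0.69 and called (adjusted p = 0.00386). All genes shifted by -0.35 and -0.52 on those scales. The ratio of Lrp5 to Lrp6 within a library needs no scaling between libraries, and it was 0.678, 0.771 and 0.693 in ADISSP and 0.497, 0.466 and 0.417 in Control on TPM. Lrp5 thus held 41.6% ± 1.69 of the summed co-receptor TPM in ADISSP and 31.5% ± 1.91 in Control (SD, n = 3 each). The shares did not overlap between the groups and differed by 10.2 percentage points, with an exact two-sided permutation p of 0.10, the smallest that 3 against 3 allows.

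**Figure D3:**
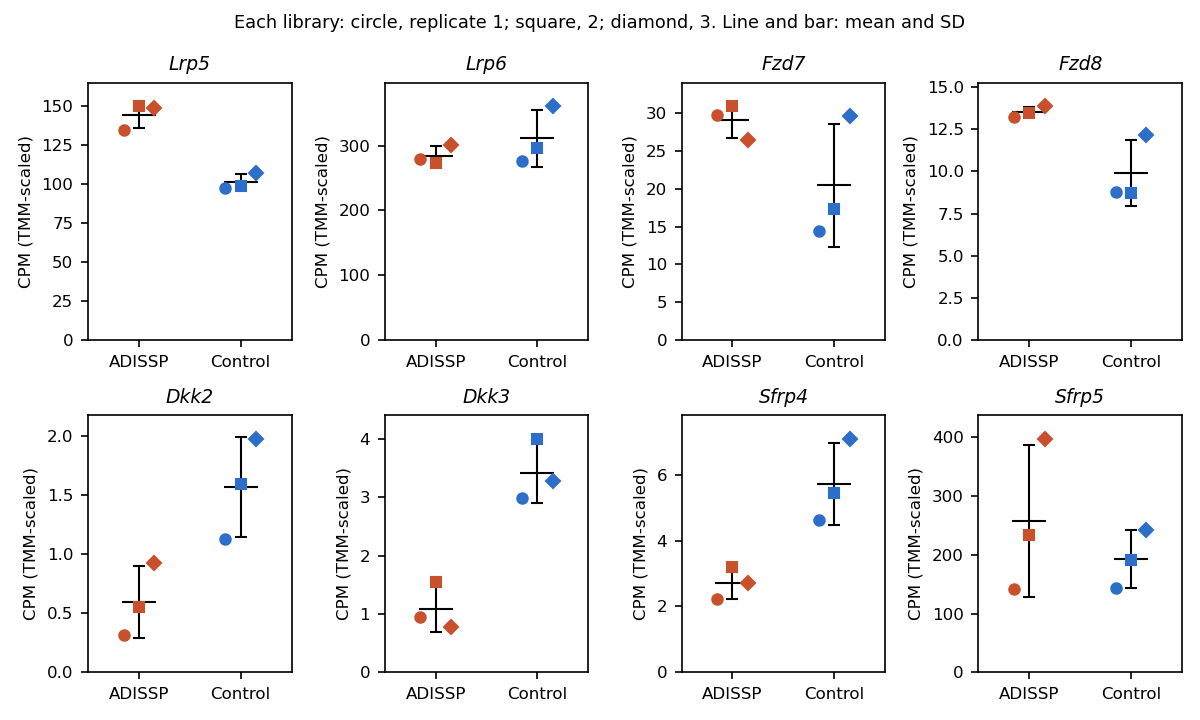
TMM-scaled CPM (vertical axis from 0) of 8 members in each ADISSP and Control library, with mean and SD. Lrp5 is higher in all 3 ADISSP libraries and Dkk2, Dkk3 and Sfrp4 are lower in all 3, while Control 3 lies near ADISSP for Fzd7 and the ADISSP libraries spread from 142 to 397 CPM for Sfrp5.

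Of the 10 antagonists, 7 were tested and 3 (42.9%) fell, beside 16.5% of all genes called lower. These were Dkk3, Dkk2 and Sfrp4, all of low level. Dkk3 (ENSMUSG00000030772, GRCm39 chromosome 7, 111715224 to 111758264, minus strand), a Dickkopf relative that does not act on Lrp co-receptors as the others do, had 12, 14 and 11 counts in ADISSP and 53, 73 and 48 in Control. In CPM this was 0.9495, 1.54 and 0.781 in ADISSP and 2.998, 4.01 and 3.27 in Control. All 3 ADISSP libraries were below all 3 Control libraries, and the change was -1.68 (SE 0.34, adjusted p = 0.00577 by edgeR). The call held in each of the 15 alternatives, with changes of -2.16 to -1.46.

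Sfrp4 (ENSMUSG00000021319, GRCm39 chromosome 13, 19807274 to 19817164, plus strand), a decoy that binds Wnts and is secreted by fat tissue, had 2.22, 3.20 and 2.70 CPM in ADISSP and 4.64, 5.44 and 7.09 CPM in Control. The groups did not overlap, and the change was -1.09 (SE 0.26, adjusted p = 0.0131 by edgeR). Without ADISSP 1 it was -0.95 and just missed the threshold (adjusted p = 0.0519).

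Dkk2 (ENSMUSG00000028031, GRCm39 chromosome 3, 131791053 to 131886065, plus strand), which binds Lrp5 and Lrp6 and whose promoter is shown above, had 4, 5 and 13 counts in ADISSP and 20, 29 and 29 in Control. In CPM it had 0.317, 0.552 and 0.923 in ADISSP and 1.13, 1.59 and 1.98 in Control. Its change was -1.35 (SE 0.46, adjusted p = 0.0482 by edgeR), close to the threshold. The call was lost without any 1 library other than ADISSP 3 (adjusted p 0.0690 to 0.149) and in DESeq2 (adjusted p = 0.0947).

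Sfrp1 and Sfrp2, decoys of the same family as Sfrp4, had lower means in ADISSP but were not called by edgeR with TMM scaling. Sfrp1 had 4.04, 4.63 and 3.48 CPM in ADISSP and 6.79, 5.38 and 6.27 CPM in Control, without overlap, and its change of -0.61 (SE 0.22) had an adjusted p of 0.0568 in edgeR. Sfrp1 was called by library totals (-0.96, adjusted p = 0.00800) and on log2(TPM + 1) (-0.94, adjusted p = 0.00830). Sfrp2 had 1.98, 7.28 and 2.20 CPM in ADISSP and 7.35, 7.30 and 6.75 CPM in Control. Here ADISSP 2 sat among the Control libraries, and without it the change was -1.75 and called (adjusted p = 0.00313), against -0.94 (adjusted p = 0.164) with all 6. On log2(TPM + 1) Sfrp2 was called at -1.51 (adjusted p = 0.0182). All genes shifted by -0.35 by library totals and by -0.52 on log2(TPM + 1).

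Markers of fibro-adipogenic progenitors, the connective tissue cells that can become fat cells, were among the cell markers that were lower beside these antagonists. Of 18 such markers 10 fell and 0 rose, beside 16.5% and 18.5% of all genes, with a median of -0.72, and their summed level was 1582 to 1765 CPM in ADISSP and 2529 to 2623 CPM in Control. None of the 18 was at 0 in either group. Macrophage markers were also lower, with 8 of 10 called lower and 1 higher, and sums of 361 to 489 CPM in ADISSP and 777 to 870 CPM in Control. All 6 tested markers of lymph node stroma fell, with sums of 4.83 to 9.93 CPM in ADISSP and 37.7 to 163 CPM in Control, and 3 of that list of 10 (Glycam1, Madcam1 and Chst4) were at 0 in every ADISSP library. All 10 B cell markers fell, with the sums given above. Of 10 endothelial markers 4 fell and 0 rose, with sums of 777 to 963 CPM in ADISSP and 1129 to 1175 CPM in Control. No macrophage, B cell or endothelial marker was at 0 throughout a group. Other lists did not fall: of 12 fat cell markers 6 rose and 0 fell, with a median of 0.43. Of 12 skeletal muscle markers 2 rose and 0 fell, and of 9 tested Schwann cell markers 2 rose and 0 fell. None of 10 smooth muscle and pericyte markers was called. The part of any of these cell types in the lower Dkk2, Dkk3 and Sfrp4 was not tested.

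Sfrp5, a Wnt decoy released by fat cells and the strongest antagonist, was the only tested antagonist with a positive change, and it was not called. It stood at 212, 333 and 616 TPM in ADISSP and at 324, 450.1 and 505 TPM in Control, a level close to that of Fzd4. In CPM it had 142, 234 and 397 in ADISSP and 144, 192 and 242 in Control. ADISSP held both the lowest and the highest library, and the change of 0.42 had an interval of -0.62 to 1.46 (adjusted p = 0.479 by edgeR). With ADISSP 3 left out it was -0.02. The interval thus covers changes of either sign.

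Wif1, the Wnt inhibitory factor, had 6, 2 and 12 counts in ADISSP and 13, 7 and 18 in Control and was not called (-0.50, interval -1.85 to 0.85). Frzb, a decoy also called Sfrp3, was too low for the test, with 2, 0 and 4 counts in ADISSP and 3, 8 and 6 in Control. Dkk1 had 0 counts in all libraries and Dkk4 had 1 count, in Control 1.

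Shares of a class's summed TPM within a library do not depend on the scaling between libraries. The leading ligand, Wnt5a, held 51.0% ± 2.58 of the ligand TPM in ADISSP and 51.0% ± 3.97 in Control, and the leading receptor, Fzd4, held 82.7% ± 1.23 of the frizzled TPM in ADISSP and 82.1% ± 0.314 in Control (SD, n = 3 each). Both overlapped between the groups. Less abundant members of these classes had shares that did not overlap. Wnt6 held 0.607% ± 0.371 of the ligand TPM in ADISSP and 2.22% ± 0.462 in Control, on few counts. Fzd6 held 1.52% ± 0.186 of the frizzled TPM in ADISSP and 2.16% ± 0.251 in Control. Fzd2 held 0.980% ± 0.249 in ADISSP and 1.45% ± 0.108 in Control, and Fzd8 was the higher in ADISSP, at 1.52% ± 0.123 in ADISSP and 1.24% ± 0.0997 in Control (SD, n = 3 each). Each of these 4 had an exact two-sided permutation p of 0.10, the smallest possible here. Sfrp5 held 96.2%, 95.4% and 98.4% of the antagonist TPM in ADISSP and 90.8%, 92.8% and 93.8% in Control, which did not overlap (difference 4.18 percentage points, exact permutation p = 0.10). As Sfrp5 makes up most of this class, its share mirrors the summed share of the other antagonists. Its own mean was 387 TPM in ADISSP and 426 TPM in Control. The shares of Sfrp4, Dkk3 and Dkk2 were lower in ADISSP without overlap, and those of Sfrp1, Sfrp2, Wif1 and Frzb overlapped. Over all 33 shares computed, the smallest Benjamini-Hochberg adjusted p of the exact test was 0.33, and this design cannot reach 0.05.

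**Figure D4:**
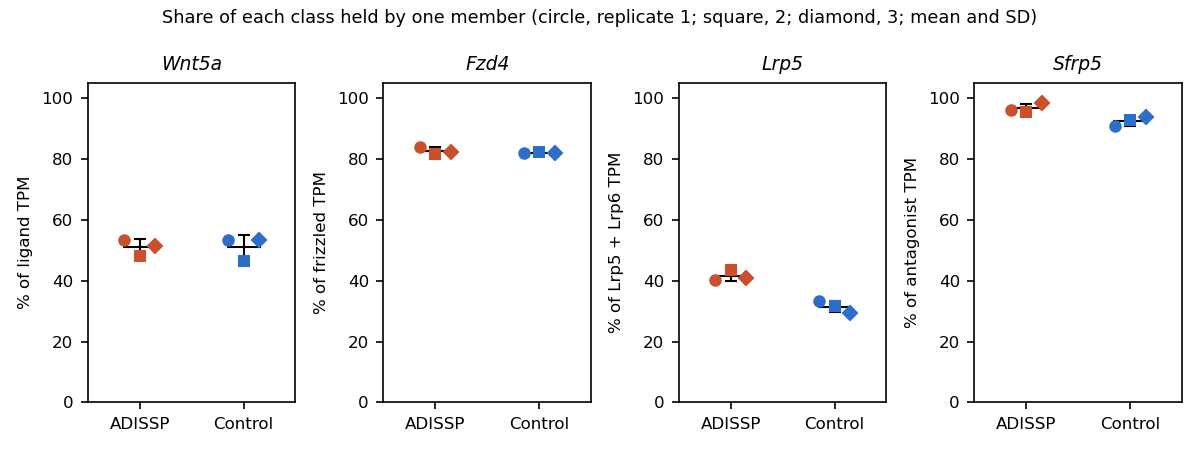
Share of the class total (vertical axis, percent of summed TPM) held by Wnt5a, Fzd4, Lrp5 and Sfrp5 in each library, with mean and SD. The shares of Wnt5a and Fzd4 overlap between ADISSP and Control, while Lrp5 and Sfrp5 hold larger shares in all 3 ADISSP libraries.

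Other genes of Wnt signalling changed about as often as genes at large: of 76 tested genes in 5 lists, 11 rose and 17 fell (36.8% called, beside 35.0% of all genes), with a median of -0.04. Some genes, among them Axin2 and Lef1, are shared between lists, and are counted once in this total but in each list below. In the list of secretion genes, Wls, the carrier that takes Wnts to the cell surface, fell (-0.44, SE 0.10, adjusted p = 0.00819 by edgeR). It had 62.5, 53.3 and 57.1 CPM in ADISSP and 78.6, 73.1 and 82.2 CPM in Control, and just missed the threshold without ADISSP 2 (adjusted p = 0.0502). Porcn, which attaches the lipid to Wnts, had 10.9, 12.6 and 8.95 CPM in ADISSP and 7.13, 6.31 and 7.50 CPM in Control. It rose by 0.63 (adjusted p = 0.0271), a call lost in 10 of 15 alternatives, among them library totals (0.28), log2(TPM + 1) (0.04) and the replicate number as a block (adjusted p = 0.0570). Notum, an enzyme that removes that lipid, had 7, 1 and 1 counts in ADISSP and 1, 0 and 0 in Control.

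In the list of 24 modulators, 3 of 16 tested genes rose and 4 fell, beside 18.5% of all genes called higher and 16.5% called lower. Lgr6, a receptor for R-spondins, which strengthen Wnt signals, had 154, 150.4 and 122 CPM in ADISSP and 2.21, 3.18 and 5.52 CPM in Control, a rise of 5.30 (SE 0.33, adjusted p = 1.0e-04). Rspo4, an R-spondin, had 24, 12 and 40 counts in ADISSP and 0, 1 and 3 in Control and was called higher (adjusted p = 0.00164). Gpc3, a cell surface glypican that binds Wnts, had 3.09, 5.19 and 3.55 CPM in ADISSP and 16.1, 11.1 and 15.3 CPM in Control, a change of -1.86 (SE 0.24). Reck, which serves in Wnt7 reception, had 5.78, 7.39 and 7.38 CPM in ADISSP and 15.4, 14.4 and 15.96 CPM in Control, a change of -1.16 (SE 0.16). Both fell and were lower in all 3 ADISSP libraries.

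Of 16 genes of the polarity branch, 1 rose and 6 fell, beside 18.5% of all genes called higher and 16.5% called lower. Ror1, a Wnt5a receptor, had 2.53, 3.09 and 2.49 CPM in ADISSP and 6.45, 6.59 and 6.34 CPM in Control, with a change of -1.26 (SE 0.21, adjusted p = 0.00249 by edgeR). Vangl2 and Ptk7 encode membrane proteins of planar cell polarity, and both fell. Vangl2 had 3.64, 2.65 and 2.91 CPM in ADISSP and 5.83, 6.64 and 6.34 CPM in Control, a change of -1.03. Ptk7 had 1.27, 1.21 and 1.14 CPM in ADISSP and 2.83, 2.75 and 2.25 CPM in Control, a change of -1.11. Ptk7 lost its call without ADISSP 3, Control 1 or Control 2 (adjusted p 0.0614 to 0.0786) and with Control 3 as the only control (0.281), where Vangl2 also missed it (0.0550). The cadherin gene Celsr2 rose by 1.23 (SE 0.17), with 58.3, 55.2 and 51.3 CPM in ADISSP and 20.7, 19.4 and 30.1 CPM in Control.

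In the beta-catenin core 6 of 29 genes rose and 3 fell, beside 18.5% of all genes called higher and 16.5% called lower. Beta-catenin itself, Ctnnb1, was not called (-0.02, adjusted p = 0.878 by edgeR). Axin2, a brake on beta-catenin that is itself a target of the pathway, had 51.7, 62.8 and 53.5 CPM in ADISSP and 16.5, 22.0 and 20.7 CPM in Control. It rose by 1.503 (SE 0.14, adjusted p = 8.3e-05 by edgeR), and the rise was called in all 15 alternatives (0.89 to 1.59). The kinase gene Gsk3a had 129, 133 and 108 CPM in ADISSP and 60.02, 59.96 and 73.5 CPM in Control, and rose by 0.94. The co-repressor gene Tle5 had 249.3, 261 and 230.0 CPM in ADISSP and 115, 129 and 174 CPM in Control. It rose by 0.82, which on log2(TPM + 1) was 0.26 and not called.

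Known target genes did not move one way: of 19 tested, 2 rose and 6 fell, with a median of -0.38. Of all genes, 18.5% were called higher and 16.5% lower. Axin2 rose as above, whereas Ccnd1 and Cd44 fell. The cell cycle gene Ccnd1 had 16.7, 15.0045 and 18.7 CPM in ADISSP and 31.3, 31.6 and 29.6 CPM in Control, a change of -0.87 (SE 0.12). The adhesion receptor gene Cd44 had 46.5, 32.5 and 35.6 CPM in ADISSP and 72.1, 82.7 and 62.8 CPM in Control, a change of -0.92 (SE 0.15). Lef1, a transcription factor of the pathway that lymphocytes also carry, had 1.90, 1.77 and 1.28 CPM in ADISSP and 23.8, 36.0 and 8.59 CPM in Control, a fall of 3.80 (SE 0.60, adjusted p = 0.00588). Control 3 had the least Lef1 of the controls, as it had of T cell markers. Of 10 T cell markers 9 fell, with sums of 25.2 to 28.6 CPM in ADISSP and 190, 265 and 63.8 CPM in Control 1, 2 and 3, and none was at 0 in either group. Their part in the fall of Lef1 was not tested.

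**Figure D5:**
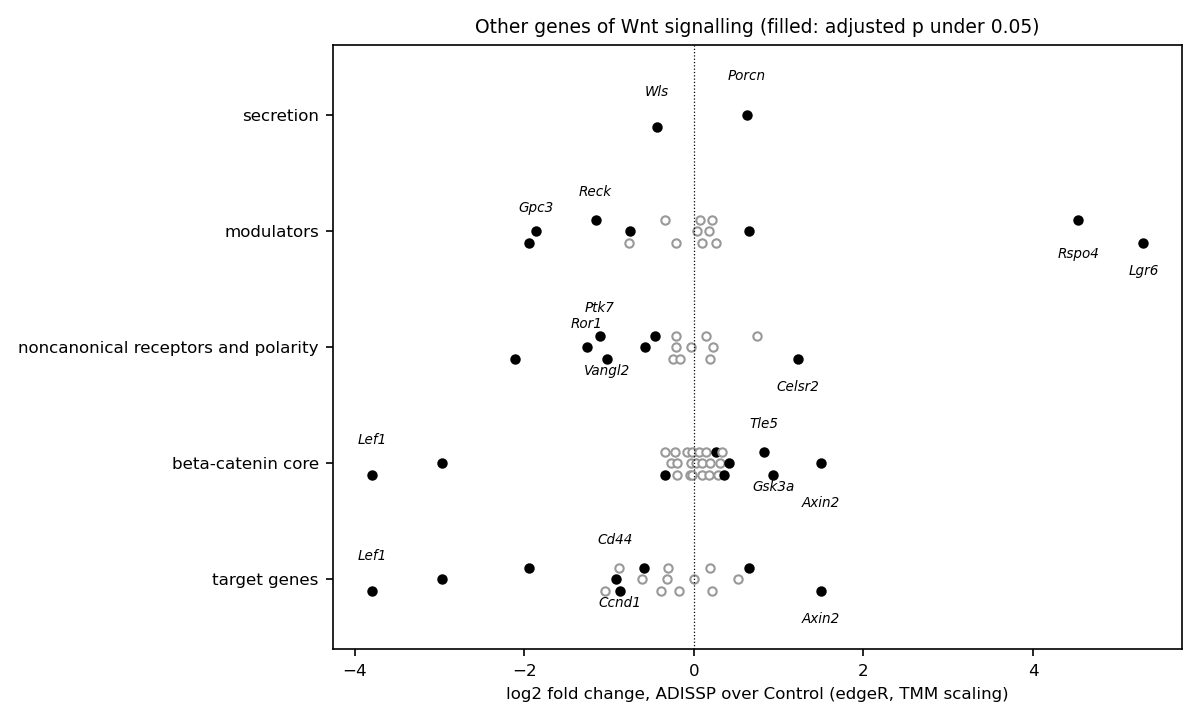
Log2 fold change of ADISSP over Control (horizontal axis) for tested genes of 5 lists of Wnt signalling, 1 row of points per list, filled where called and named for up to 4 called genes per list. Lgr6, Rspo4 and Axin2 lie to the right and Lef1 farthest to the left, with most genes near 0.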

How the data were processed

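RNA from inguinal fat was depleted of ribosomal RNA and sequenced as 3 ADISSP and 3 Control libraries, described as biological triplicates of 1 batch per the labels. That replicates are separate mice is not stated, so p-values measure the spread between these libraries. Reads were handled with STAR and featureCounts on GRCm39 (mm39), per the submitters' processing notes. Neither tool versions nor the strand setting were stated. The deposited count table gives whole-number counts of reads per gene for 57180 genes. The deposited TPM and FPKM tables, scaled to 1000000 and per length, hold the 23524 genes with at least 10 counts over the 6 libraries.

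Genes were filtered with filterByExpr (17320 tested) and fitted with edgeR 4.0.16 in R 4.3.3, using TMM scaling and the robust quasi-likelihood test with Benjamini-Hochberg adjustment over all genes tested, at a threshold of 0.05. The edgeR script was tested on simulated data in 5 runs, each with 200 of 17320 genes changed. More of the calls were false than the threshold states in each run (11.1% on average), and 48.2% of 2-fold changes were recovered. Far fewer genes were changed there than were called here, so these rates need not hold for these data. Adjusted p-values just under 0.05, as for Dkk2, are best read as weak evidence. Alternatives used DESeq2 1.42.0, limma 3.58.1 on log2(TPM + 1) or log2(TPM + 0.1), library totals, no low-count filter, a replicate block, and each library left out. With totals of 10357930 to 15658428 counts and their TMM factors, 3 counts in a library stood at 0.165 to 0.331 CPM. Intervals on counts are exact, at 95%, and cover counting error only. Shares were compared by an exact two-sided permutation test. TMM-scaled CPM describe differences between groups, and TPM compare genes.

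All 41 members are accounted for. Values per library are given for called members, the 2 most abundant of each role and up to 4 called genes with the smallest p for each pathway list. Other genes with values per library (Wnt2, Wnt10b, Wnt6, Wnt10a, Wnt4, Fzd6, Fzd7, Fzd8, Fzd9, Fzd10, Sfrp1, Wif1, Frzb and Notum, with Ctnnb1 as a fold change) were chosen after their values were seen. The members and lists were chosen with earlier results of these data known. Promoter sequences are from RefSeq on GRCm38.p6.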

Additional observations from a re-analysis of the deposited data

How the results depend on the processing

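Higher and lower calls over all genes were 3197 and 2861, against 1756 and 6600 by library totals, 1886 and 1304 with Control 3 as the only control, 1298 and 9706 on log2(TPM + 1), 1290 and 9582 on log2(TPM + 0.1) and 1242 and 9309 with a mean TPM of at least 1. Leaving out 1 library gave 2260 to 4305 higher and 1563 to 4212 lower. Members called were 1 higher and 3 lower, against 0 and 9 by library totals, 0 and 12 on both TPM scales and 0 and 11 with the TPM filter, and 1 to 3 higher and 1 to 4 lower with 1 library left out. Pathway genes were 11 higher and 17 lower, against 6 and 37 by library totals, 6 higher with Control 3 only, 5 and 46, 5 and 47, and 5 and 47 on the 3 TPM settings, and 7 to 19 higher and 10 to 19 lower with 1 library left out. The Lrp5 share differed by 12.2 points with Control 3 only. Leaving out 1 library gave differences of 9.13 to 11.0 points for Lrp5, 3.31 to 4.85 for Sfrp5, -2.28 to 1.39 for Wnt5a and -0.07 to 1.08 for Fzd4. Scaling and fewer samples are how these settings are built; beyond that the cause was not tested. Same-numbered libraries correlated at 0.0348, 0.0804 and 0.0503 in their deviations, so the numbers were not taken to pair mice. With the replicate block 2947 genes were higher and 2594 lower, Dkk2 was at -1.42 (adjusted p = 0.0391 by edgeR), and members called stayed at 1 and 3. Signs changed for members that were not called, and for Lrp5 on TPM (-0.0671 and -0.0685 with pseudocounts 1 and 0.1). By library totals Wnt10b was -0.33, Fzd3 -0.25, Fzd4 -0.17 and Fzd5 -0.0798. With Control 3 only, Wnt5b was 0.0576, Wnt8b -0.26, Fzd3 -0.00058, Fzd4 -0.0057 and Fzd7 -0.0371. On log2(TPM + 1) and log2(TPM + 0.1), Wnt10b was -0.51 and -0.75, Wnt8b -0.17 and -0.25, Fzd3 -0.38 and -0.48, Fzd4 -0.40 and -0.40, Fzd5 -0.28 and -0.31, Fzd7 -0.0092 and -0.0073, Fzd8 -0.10 and -0.11, and Sfrp5 -0.25 and -0.25. Wnt10b was -0.13 with the block. Leaving out 1 library gave -0.29 to 0.47 for Wnt10b, -0.69 to 0.0717 for Wnt5b, -0.0595 to 0.75 for Wnt8b, -0.17 to 0.21 for Wnt9a, -0.30 to 0.11 for Fzd1, -0.0554 to 0.26 for Fzd3 and -0.0239 to 0.73 for Sfrp5. Depth limits the 17 untested members and Dkk2, whose ADISSP libraries held 4 to 13 counts.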
